A study of Mus musculus with 6 samples.

Results

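Conventional dendritic cell subset genes were followed in bulk RNA-seq of CD11b+ spleen cells: 10 genes, chosen by name, of 43432 in the deposited table. They were Zbtb46 and Dpp4, which mark conventional dendritic cells in general, Cd209a, Clec10a, Esam and Clec4a4 of the type 2 subset, Xcr1, Clec9a and Cd24a of the type 1 subset, and Ffar2, a receptor for short-chain fatty acids. All 6 mice were Rag1 KO on the C57BL/6J strain, received 2D2 CD4+ T cells together with MOG-loaded B cells grown in the iGB culture, and were sampled on day 8 after the transfer. In the WT iGB6 group (3 mice) the transferred B cells were wild type, transduced with a pMSCV-IRES2-eGFP retrovirus holding Il6. In IgHMOG iGBGFP (3 mice) they were IgHMOG B cells with the empty vector, so B cell genotype and vector changed together and cannot be told apart. Each group had 1 female, replicate 1, and 2 males. The hosts make no mature B or T cells of their own, each library came from 1 mouse, and the mice's age was not used here.

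Conventional dendritic cells take up antigen and present it to T cells, and they arise from bone marrow precursors under the growth factor receptor FLT3. The type 1 subset, set up by IRF8 and BATF3, is known for cross-presentation to CD8 T cells, and the type 2 subset, which depends on IRF4 and on NOTCH2 signalling in the spleen, for priming CD4 T cells. Type 2 cells carry CD11b, whereas type 1 cells carry little of it, so a CD11b+ sort is expected to hold few of the latter. Monocytes can also take on dendritic cell features, and some then express CD209a. Fewer cells of a type and less RNA per cell cannot be told apart in bulk libraries.

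The 6 libraries held 5196339 to 7564254 reads and 14816 to 17013 detected genes. Itgam, which encodes CD11b, was present in every library at 6451 to 12352 normalized counts. Of all 9923 genes tested for a difference between the groups, 607 (6.12%) passed. Without the sex term of the model only 10 genes passed, and leaving out a library moved the number to between 4 (without IgHMOG iGBGFP replicate 2) and 1083 (without WT iGB6 replicate 2), so every call below rests on the comparison within sexes.

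Cd209a and Dpp4 fell together in WT iGB6, and their upstream sequences are printed because they are the subset genes that passed as lower and have an entry among the RefSeq promoters of GRCm38.p6, which held 6 of the 10 genes. Each run is the 250 bases before the transcription start, 5′ to 3′ on the gene's strand (minus for both), at chr8:3748985-3749234 for Cd209a and chr2:62412232-62412481 for Dpp4. Capitals mark letters of the motifs searched on both strands: GAGGAAG (PU.1), TGANTCA (AP-1 and BATF), the composite of ETS and IRF sites, and the core of the interferon-stimulated response element. The PU.1 letters can overlap the composite.
Cd209a: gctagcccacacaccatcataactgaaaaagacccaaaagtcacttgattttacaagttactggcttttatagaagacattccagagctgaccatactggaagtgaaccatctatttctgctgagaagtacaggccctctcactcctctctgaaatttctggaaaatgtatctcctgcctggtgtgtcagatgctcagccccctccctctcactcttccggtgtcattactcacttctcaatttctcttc
Dpp4: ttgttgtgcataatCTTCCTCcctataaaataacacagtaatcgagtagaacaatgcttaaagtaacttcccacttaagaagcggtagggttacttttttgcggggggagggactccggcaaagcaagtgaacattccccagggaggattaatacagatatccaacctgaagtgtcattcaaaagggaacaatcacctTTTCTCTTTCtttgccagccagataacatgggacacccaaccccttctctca
No match was in the Cd209a window. The Dpp4 window held the PU.1 letters on the opposite strand, 236 to 230 bases before the start, and the response element core on the opposite strand, 52 to 43 bases before it. Of all 32851 promoter windows of this length, 10.6% held the PU.1 letters and 2.98% the response element core, against 2.30% for the composite and 6.75% for the AP-1 letters. The Zbtb46 window, which lies inside the annotated gene rather than upstream of it, held the AP-1 letters, while those of Xcr1 and Clec9a held none. Ffar2 has 4 windows, of which 1, also inside the annotated gene, held the composite and another the AP-1 letters. A match is only a match of letters.

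The 10 genes spanned a wide range of levels. Per kilobase of merged exons, normalized counts in IgHMOG iGBGFP were highest for Cd24a (694 ± 292; SD, n = 3 here and below), Cd209a (323 ± 215) and Ffar2 (120 ± 70.2). Clec10a (40.2 ± 25.4), Dpp4 (24.8 ± 11.4) and Clec4a4 (20.0 ± 10.9) followed, with levels that lay within each other's spread. Xcr1 (3.33 ± 2.03), Clec9a (2.67 ± 1.20), Esam (1.42 ± 0.368) and Zbtb46 (0.803 ± 0.257) were lowest per kilobase. In WT iGB6 the order per kilobase had Cd24a (778 ± 87.4) and Ffar2 (257 ± 86.7) first, and Cd209a (20.9 ± 20.3) then lay within the spread of Clec10a (17.2 ± 10.2).

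Of the 10 genes, 6 had a mean of at least 10 normalized counts and were tested. Cd209a and Dpp4 fell, Ffar2 rose, and Clec10a, Xcr1 and Cd24a did not pass, against 3.37% of all tested genes lower and 2.75% higher. The median log2 fold change of the 6 was -0.97, beside 0.02 over all tested genes. Zbtb46, Esam, Clec4a4 and Clec9a had too few reads for that test. Leaving out any of IgHMOG iGBGFP replicates 1, 2 and 3 or WT iGB6 replicate 1 left Cd209a as the 1 call among the 6, and without the sex term none of the 6 passed (limma adjusted p = 0.0996 for Cd209a, 0.129 for Dpp4 and 0.163 for Ffar2; 0.101% of all genes passed there). Of all genes tested, 1.29%, 0.0403%, 0.262% and 1.36% passed without those 4 libraries in that order, 1.35% in males alone, 10.9% without WT iGB6 replicate 2 and 6.59% without replicate 3. Leaving out either replicate 1 gives the same fold changes as males alone, because the sex term then fits the lone female exactly. The share was 6.11% with edgeR, 5.51% with edgeR at a mean of at least 1, 9.58% with DESeq2, 8.18% in the authors' deposited table, 4.76% without the filter and 14.5% with library weights. It was 5.99% and 6.36% with pseudocounts of 0.5 and 5, 6.07% with TMM scaling, 6.49% at a mean of at least 50 and 10.1% with the replicate block. The higher direction without overlap between groups held 12.2% of tested genes.

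**Figure D1:**
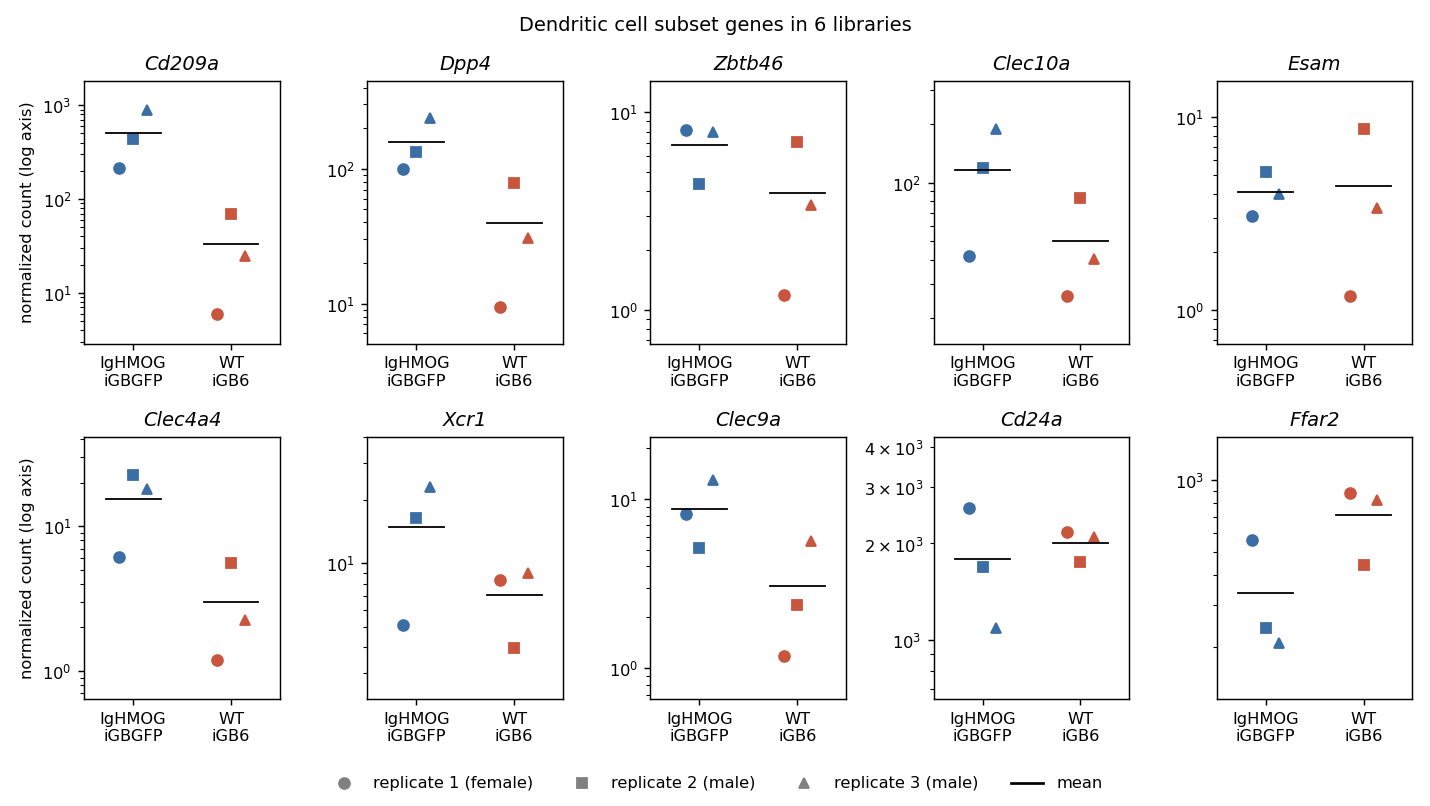
Normalized count (log axis, range set per gene) of the 10 genes in each library, by group; symbols give the replicate number and sex, lines the mean of 3 libraries. Cd209a, Dpp4 and Clec4a4 have all WT iGB6 libraries below all IgHMOG iGBGFP libraries, and the other genes overlap. Of all tested genes, to which Clec4a4 does not belong, 11.4% did not overlap in this direction.

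Cd209a, a C-type lectin of the DC-SIGN family found on type 2 and some monocyte-derived dendritic cells, showed the largest change of the 10. It had 213, 439 and 882 normalized counts in IgHMOG iGBGFP replicates 1, 2 and 3 and 5.93, 68.7 and 24.7 in WT iGB6 replicates 1, 2 and 3. The groups did not overlap, as for 11.4% of all tested genes in this direction, and the female was the lowest library of each group. The lowest value stood for 5 reads. The log2 fold change was -4.24 (SE 0.41, limma adjusted p = 0.00157), and it ranged from -4.75 to -3.88 over all the alternatives, with only the model without the sex term not passing. Cd209a was close to the threshold without IgHMOG iGBGFP replicate 2 (limma adjusted p = 0.0483) and without its replicate 3 (limma adjusted p = 0.0415). DESeq2 on the recovered reads put the log2 fold change at -4.12. In the authors' deposited table, also made with DESeq2, Cd209a was at -3.33 (adjusted p = 5.34e-21), and the reason for this gap was not tested. No 50-base word of the Cd209a transcripts occurred in a transcript of another gene, so read sharing with its lectin relatives at that length was not found. The gene (ENSMUSG00000031494) lies on chromosome 8 of GRCm38 at 3743397 to 3748984.

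Clec10a encodes another C-type lectin, MGL1, of type 2 dendritic cells and macrophages. It had 41.9, 119 and 189 normalized counts in IgHMOG iGBGFP and 26.1, 82.9 and 40.5 in WT iGB6. Again the female was lowest in each group, and the groups overlapped. Clec10a did not pass with limma (log2 fold change -1.13, SE 0.33, adjusted p = 0.0709), but passed with DESeq2 (adjusted p = 0.0259), in the authors' deposited table (adjusted p = 0.0340) and without WT iGB6 replicate 2 (limma adjusted p = 0.0132). Of its 50-base words, 9.02% occurred in another gene, nearly all in Mgl2, its neighbour in the lectin family, so its count is uncertain. Mgl2, named after its values were seen, did not share the direction: it had 20.5, 28.5 and 24.0 normalized counts in IgHMOG iGBGFP and 116, 86.8 and 20.2 in WT iGB6 (log2 fold change 1.26, SE 0.53, limma adjusted p = 0.175; adjusted p = 0.0317 with DESeq2). Mgl2 also passed in the authors' deposited table (1.14, adjusted p = 0.0365), with library weights (1.88, limma adjusted p = 0.00741) and without WT iGB6 replicate 3 (2.02, limma adjusted p = 0.00455). It was at 0.67 without replicate 1 of either group.

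Clec4a4 encodes DCIR2, the inhibitory lectin recognised by an antibody used to mark splenic type 2 cells. It had 6, 26 and 18 reads in IgHMOG iGBGFP and 1, 7 and 2 in WT iGB6, or 6.14, 22.4 and 18.0 against 1.19, 5.53 and 2.25 normalized counts. These groups did not overlap either. The share without overlap in this direction was 11.4% of all tested genes. Clec4a4 was not among the tested genes, because its mean was below the filter. With edgeR on all genes of at least 1 normalized count, an alternative chosen after seeing the data, it was lower (log2 fold change -2.27, edgeR adjusted p = 0.0378), as in limma without a filter (-2.03, SE 0.61, adjusted p = 0.0455), where 2.91% and 2.74% of all genes were lower. In the authors' deposited table it did not pass (adjusted p = 0.0744). Of its words 15.7% occurred in Clec4a2, so this count is uncertain too.

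Esam, an adhesion molecule of the NOTCH2-dependent splenic type 2 cells, was near the limit of detection. It had 3, 6 and 4 reads in IgHMOG iGBGFP and 1, 11 and 3 in WT iGB6. The groups overlapped, and edgeR gave a log2 fold change of 0.10 (adjusted p = 0.965), so no difference was detectable at this depth.

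Among the genes of conventional dendritic cells in general, Dpp4 (CD26, a serine peptidase that T cells also carry) had 99.2, 133 and 238 normalized counts in IgHMOG iGBGFP and 9.49, 78.1 and 30.4 in WT iGB6. All WT iGB6 libraries were below all others, replicate 2 the closest. It fell by 2.31 on the log2 scale (SE 0.42, limma adjusted p = 0.0176), and it did not pass in males alone (-1.84, adjusted p = 0.0675). Summed T cell markers (8 genes, of which 1 of 3 tested fell) were at 158 to 213 normalized counts in IgHMOG iGBGFP and 89.2 to 121 in WT iGB6, with 1 to 4 reads of the receptor chain Cd3e in IgHMOG iGBGFP and 0 in WT iGB6. Cd3d, the T cell marker with the most reads, had 47.0 to 132 normalized counts in IgHMOG iGBGFP and 63.1 to 85.5 in WT iGB6. Its log2 fold change was -0.02 (SE 0.31, limma adjusted p = 0.981). Cd4, which also stands in the type 2 list, did not pass (-1.13, SE 0.43, limma adjusted p = 0.146). It had 13.3, 19.8 and 34.0 normalized counts in IgHMOG iGBGFP and 10.7, 8.68 and 7.87 in WT iGB6. The gene that fell was Lat. The part of T cells in the Dpp4 result was not tested. Dpp4 (ENSMUSG00000035000) lies on chromosome 2 at 62330073 to 62412231.

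Zbtb46, the transcription factor that separates conventional dendritic cells from other myeloid cells, had 8, 5 and 8 reads in IgHMOG iGBGFP and 1, 9 and 3 in WT iGB6. The groups overlapped, with WT iGB6 replicate 2 the highest in reads. Its difference was not detectable at this depth (edgeR log2 fold change -0.74, adjusted p = 0.638).

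The type 1 genes Xcr1 and Clec9a were barely detected in this CD11b+ sort. Xcr1, the receptor for the chemokine XCL1, had 5, 19 and 23 reads in IgHMOG iGBGFP and 7, 5 and 8 in WT iGB6 (log2 fold change -0.82, SE 0.57, limma adjusted p = 0.404). It was at -0.33 without WT iGB6 replicate 2 and at -1.54 without replicate 1 of either group. The male libraries were at 16.4 and 23.0 normalized counts in IgHMOG iGBGFP and 3.95 and 9.00 in WT iGB6, and the females at 5.11 and 8.30. The interaction of sex and group did not pass (2.14, SE 1.07, limma adjusted p = 1.00; 0 of 9923 genes passed that test and 148 had an unadjusted p under 0.05). Clec9a, a receptor for the actin of dead cells, had 8, 6 and 13 reads in IgHMOG iGBGFP and 1, 3 and 5 in WT iGB6. The groups overlapped once reads were scaled by depth, with 5.62 normalized counts in WT iGB6 replicate 3 above the 5.17 in IgHMOG iGBGFP replicate 2, and edgeR did not call it (-1.53, adjusted p = 0.257).

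Cd24a, a small glycosylphosphatidylinositol-anchored protein used to sort type 1 cells but also made by neutrophils, B cells and erythroid precursors, was the most abundant of the 10. It had 2585, 1694 and 1090 normalized counts in IgHMOG iGBGFP and 2170, 1750 and 2102 in WT iGB6, with the lowest and the highest library both in IgHMOG iGBGFP. It did not pass (log2 fold change 0.25, SE 0.23, limma adjusted p = 0.545). Its level per kilobase was over that of the other type 1 genes by far: 694 against 3.33 for Xcr1 in IgHMOG iGBGFP. Relative to the neutrophil surface gene Ly6g in the same library, Cd24a was at 0.696, 0.906 and 0.891 in IgHMOG iGBGFP and 0.568, 0.770 and 0.471 in WT iGB6, which overlapped.

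Ffar2, which neutrophils also express, moved the other way. It had 562, 240 and 207 normalized counts in IgHMOG iGBGFP and 886, 440 and 824 in WT iGB6, with the female highest in each group. The groups overlapped, and within sexes it rose (log2 fold change 1.17, SE 0.26, limma adjusted p = 0.0327; 1.43 and adjusted p = 0.0525 in males alone). All 7 neutrophil precursor genes of the marker list rose as well, and their sum was 2060 to 5323 in IgHMOG iGBGFP and 10231 to 25887 in WT iGB6. Of 10 mature neutrophil genes 1 fell, none rose and 9 did not pass, with a median log2 fold change of 0.58. The part of neutrophils in the Ffar2 result was not tested. The ratio of Ffar2 to Ly6g was 0.151, 0.128 and 0.169 in IgHMOG iGBGFP and 0.232, 0.194 and 0.185 in WT iGB6 (exact permutation p = 0.1, the smallest possible; 0.16 after adjustment over 8 ratios chosen after the values were seen).

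Within each group, the female library was the lowest for Cd209a, Dpp4, Clec10a and Clec4a4 and the highest for Cd24a and Ffar2. The female minus male difference of log2 values was -2.08 for Cd209a (SE 0.43, limma adjusted p = 0.136), -1.54 for Dpp4 (SE 0.45, limma adjusted p = 0.202) and -1.47 for Clec10a (SE 0.35, limma adjusted p = 0.159). It was 0.94 for Ffar2 (SE 0.27, limma adjusted p = 0.204) and 0.55 for Cd24a (SE 0.24, limma adjusted p = 0.343), so none passed. With 1 female per group, sex and anything else particular to those libraries cannot be told apart.

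Dendritic cell genes around the 10 were set beside them by list. Of 6 genes of conventional dendritic cells in general, 5 were tested, 4 fell and none rose (median log2 fold change -1.46). Flt3, the growth factor receptor, had 18.4, 37.9 and 60.0 normalized counts in IgHMOG iGBGFP and 2.37, 17.4 and 11.2 in WT iGB6, without overlap (-1.98, SE 0.40, limma adjusted p = 0.0248). Itgax, the CD11c integrin chain, had 106, 178 and 197 against 35.6, 112 and 42.7, with overlap through WT iGB6 replicate 2 (-1.46, SE 0.33, limma adjusted p = 0.0337). Btla, an inhibitory receptor shared with lymphocytes, fell by 1.15 (SE 0.25).

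Of 14 type 2 genes 10 were tested, 3 fell and 7 did not pass (median -1.09). Beside Cd209a these were Irf4, a transcription factor of type 2 cells (-2.55, SE 0.49), and Cd7, a lymphoid and natural killer cell receptor (-2.08, SE 0.23). Sirpa, with the highest mean normalized count of the list and a ligand-binding partner of CD47 on all myeloid cells, was at -0.47 (SE 0.16, limma adjusted p = 0.113). Mgl2, also of this list, was at 1.26 (SE 0.53), as given above. Of 16 type 1 genes 10 were tested, 1 fell and 9 did not pass (median -0.38). The 1 was Irf8 (-1.17, SE 0.24), which monocytes also use. Batf3 was at -1.73 (SE 0.46, limma adjusted p = 0.0538) and passed with edgeR (adjusted p = 0.0474). Its adjusted p was 0.0119 by DESeq2 on the recovered reads, and 0.0185 in the authors' deposited table. Without IgHMOG iGBGFP replicate 2 it was at -1.62 (limma adjusted p = 0.249). Naaa, a lipid amidase, was at -0.52 (SE 0.19, limma adjusted p = 0.123), and the lysosomal enzyme gene Ppt1 at -0.25 (SE 0.20, limma adjusted p = 0.476). The difference between the type 1 and type 2 lists was not tested.

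Of 12 genes of monocyte-derived dendritic cells, all tested, 2 fell and 10 did not pass (median -0.15). The 2 were Cx3cr1, the fractalkine receptor (-1.87, SE 0.37), and Fcer1a, the IgE receptor alpha chain (-2.55, SE 0.33), which also stands in the basophil list. Cd209a, which some monocyte-derived cells also express, was counted in the type 2 list and is not among these 12. Fcgr1, which encodes CD64, had 224, 428 and 470 normalized counts in IgHMOG iGBGFP and 308, 390 and 337 in WT iGB6 (-0.05, SE 0.20, limma adjusted p = 0.907). Lyz2, the lysozyme gene, with the highest mean normalized count of the list, was at 0.42 (SE 0.36, limma adjusted p = 0.514). Itgam, which encodes the CD11b used for the sort, was at 0.49 (SE 0.22, limma adjusted p = 0.203). Of 15 tested transcription factors of dendritic cells 4 fell and none rose. Among the 4 were Irf4 and Irf8, already counted in the type 2 and type 1 lists. Klf4 was at -1.73 (SE 0.39) and Bcl6, with the highest mean normalized count, at -0.04 (SE 0.21, limma adjusted p = 0.933). Of 8 tested genes of mature or migratory dendritic cells, Cd83, an activation marker, fell by 1.61 (SE 0.25) and 7 did not pass, among them Relb (-0.95, SE 0.34), Cd40 (-0.78, SE 0.30) and Cd86 (-0.56, SE 0.28; -0.92 and limma adjusted p = 0.0166 without WT iGB6 replicate 2). The calls of Flt3, Itgax, Btla and Cx3cr1 were lost in the same settings as that of Dpp4. Those of Irf4, Irf8, Klf4, Cd7, Cd83 and Fcer1a were lost without the sex term and without IgHMOG iGBGFP replicate 2, the calls of Irf4, Irf8, Klf4 and Cd83 also without its replicate 3, and that of Cd83 also without its replicate 1 (limma adjusted p = 0.0509).

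**Figure D2:**
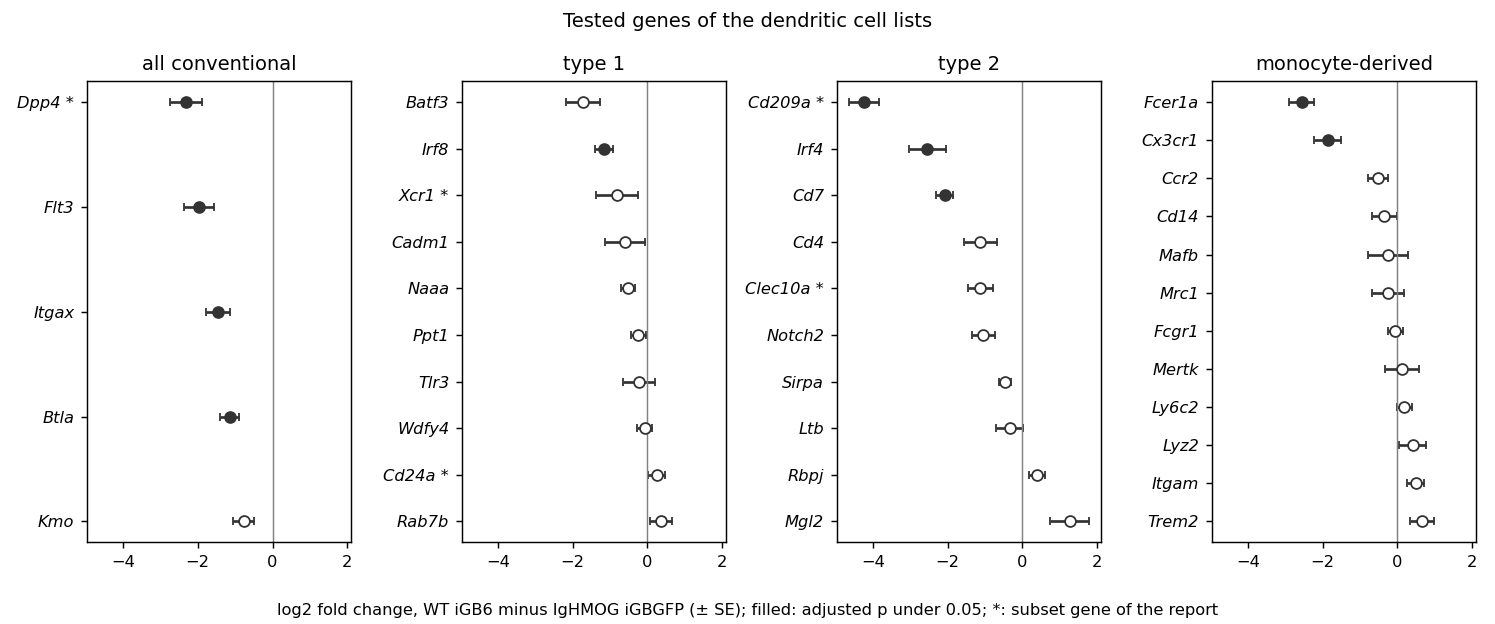
Log2 fold change (WT iGB6 minus IgHMOG iGBGFP, bars ± SE, n = 3 per group) of the tested genes of 4 dendritic cell lists; filled points passed, and asterisks mark subset genes followed in the text. Filled points are 4 of 5 in the general list, 1 of 10 in type 1, 3 of 10 in type 2 and 2 of 12 in the monocyte-derived list, and each lies left of 0.

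Ratios within a library restate the values above, 2 genes at a time, and are no separate test of whether genes moved unequally. The ratios were chosen after the values were seen, 8 in all. An exact permutation of 3 against 3 libraries cannot give a p under 0.1 (two-sided, 0.16 after Benjamini-Hochberg adjustment over the 8), so none could pass. Cd209a to Itgax was 2.00, 2.47 and 4.48 in IgHMOG iGBGFP and 0.167, 0.613 and 0.579 in WT iGB6 (exact permutation p = 0.1). Cd209a to Dpp4 was 2.14, 3.31 and 3.71 against 0.625, 0.879 and 0.815 (exact permutation p = 0.1), and Cd209a to Clec10a was 5.07, 3.69 and 4.67 against 0.227, 0.829 and 0.611 (exact permutation p = 0.1). In each library pairing across groups, then, Cd209a made up less relative to these genes in WT iGB6. Dpp4 to Itgax also did not overlap, at 0.933, 0.748 and 1.21 against 0.267, 0.697 and 0.711 (exact permutation p = 0.1). Clec10a to Itgax overlapped, at 0.394, 0.670 and 0.959 against 0.733, 0.739 and 0.947 (exact permutation p = 0.5), as did Xcr1 to Itgax (exact permutation p = 0.6).

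**Figure D3:**
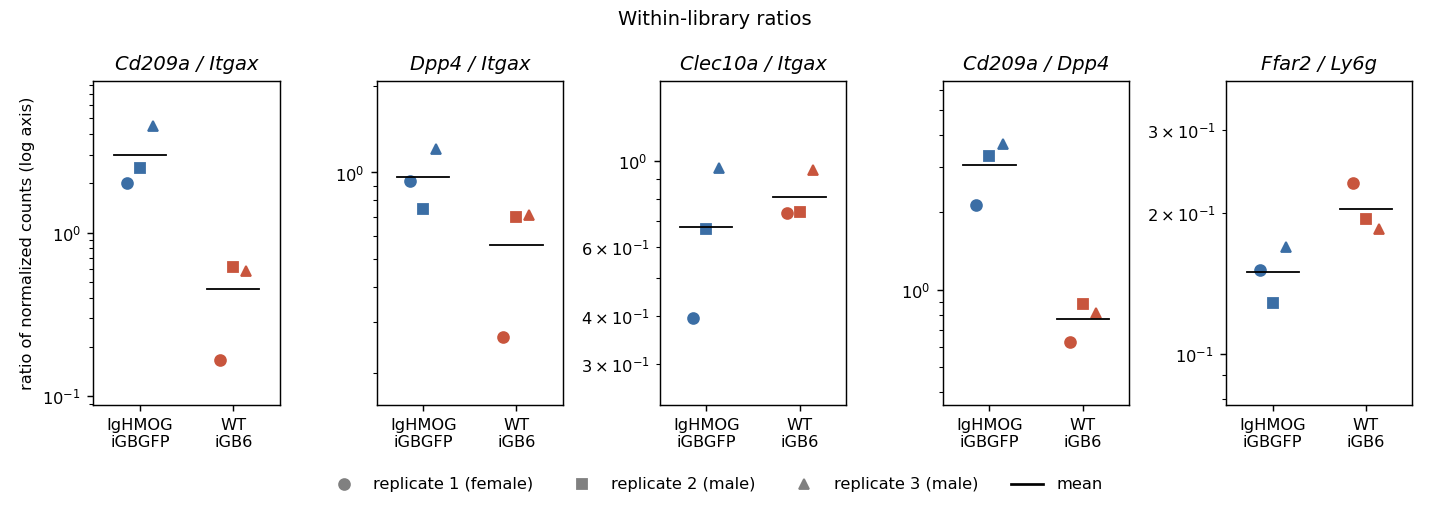
Ratio of normalized counts of 2 genes within each library (log axis, range set per panel), by group; symbols give replicate and sex, lines the mean of 3. Cd209a to Itgax and Cd209a to Dpp4 separate the groups, with WT iGB6 at or below 0.879, Clec10a to Itgax overlaps, and Ffar2 to Ly6g is higher in WT iGB6.

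The type 2 genes Cd209a, Clec10a, Esam and Clec4a4, summed per kilobase, stood over the type 1 genes Xcr1 and Clec9a by 43.4, 66.5 and 71.0 times in IgHMOG iGBGFP and by 6.60, 51.2 and 9.03 times in WT iGB6. The groups overlapped, with WT iGB6 replicate 2 above IgHMOG iGBGFP replicate 1. Without Cd209a the same ratio was 6.45, 13.7 and 9.85 against 4.92, 24.1 and 4.84, and the groups overlapped here too. With 8 to 36 reads of both type 1 genes per library, these ratios are imprecise.

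Markers of other cells that the sort could hold were summed by list. Of the sums below, only those of basophils and classical monocytes did not overlap between the groups. Basophil markers (7 genes, 5 of them lower) summed to 1838 to 7470 normalized counts in IgHMOG iGBGFP and 464 to 1691 in WT iGB6. Those of plasmacytoid dendritic cells (11 genes, 3 tested, 1 lower) summed to 398 to 733 and 338 to 450, and the defining gene Siglech had 0 to 11 reads per library. B cell markers (7 genes, none of 3 tested passed) summed to 92.1 to 156 and 56.9 to 97.9, and splenic macrophage markers (8 genes, 1 higher) to 9103 to 11821 and 6559 to 14095. Of 7 classical monocyte markers 2 were lower and 5 did not pass (median log2 fold change -0.52). Their sum was 61632 to 103327 in IgHMOG iGBGFP and 112856 to 166903 in WT iGB6, of which Chil3 alone made up 36457 to 88728 and 93983 to 152107 (log2 fold change 1.26, limma adjusted p = 0.0540), against -2.55 for Fn1 and -0.85 for Ms4a4c. Natural killer cell markers (7 genes, 6 tested, 1 higher) summed to 468 to 1121 and 578 to 2241, and erythroid markers (7 genes, 6 tested, none passed) to 668 to 2928 and 1818 to 3971. Of 7 tested progenitor genes 1 was higher and 2 lower. Of the 2 lower, 1 is Flt3, counted above in the general dendritic cell list, and the other also stands in the basophil list. The part of these other cells in the subset genes' results was not tested.

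Genes whose pattern over the 6 libraries lay nearest to that of Cd209a were sought among 9480 tested protein-coding genes by the mean absolute distance of log2 values centred on each gene's mean. They were Flt1 (0.57), Csrp3 (0.59), Zbtb16 (0.60), Stxbp6 (0.65) and Osbpl5 (0.71), with 0 to 19.7 normalized counts in WT iGB6. Each had all WT iGB6 libraries below all others, which follows largely from choosing genes by likeness to Cd209a and is no separate result. Nearest to Zbtb46 were Slc11a2 (0.19), Slc14a1 (0.20), Pstk (0.22), Zfp329 (0.22) and Nprl3 (0.23). All overlapped between groups, as did Zbtb46, by whose pattern they were chosen. That pattern rests on 1 to 9 reads per library, so these distances are imprecise.

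**Figure D4:**
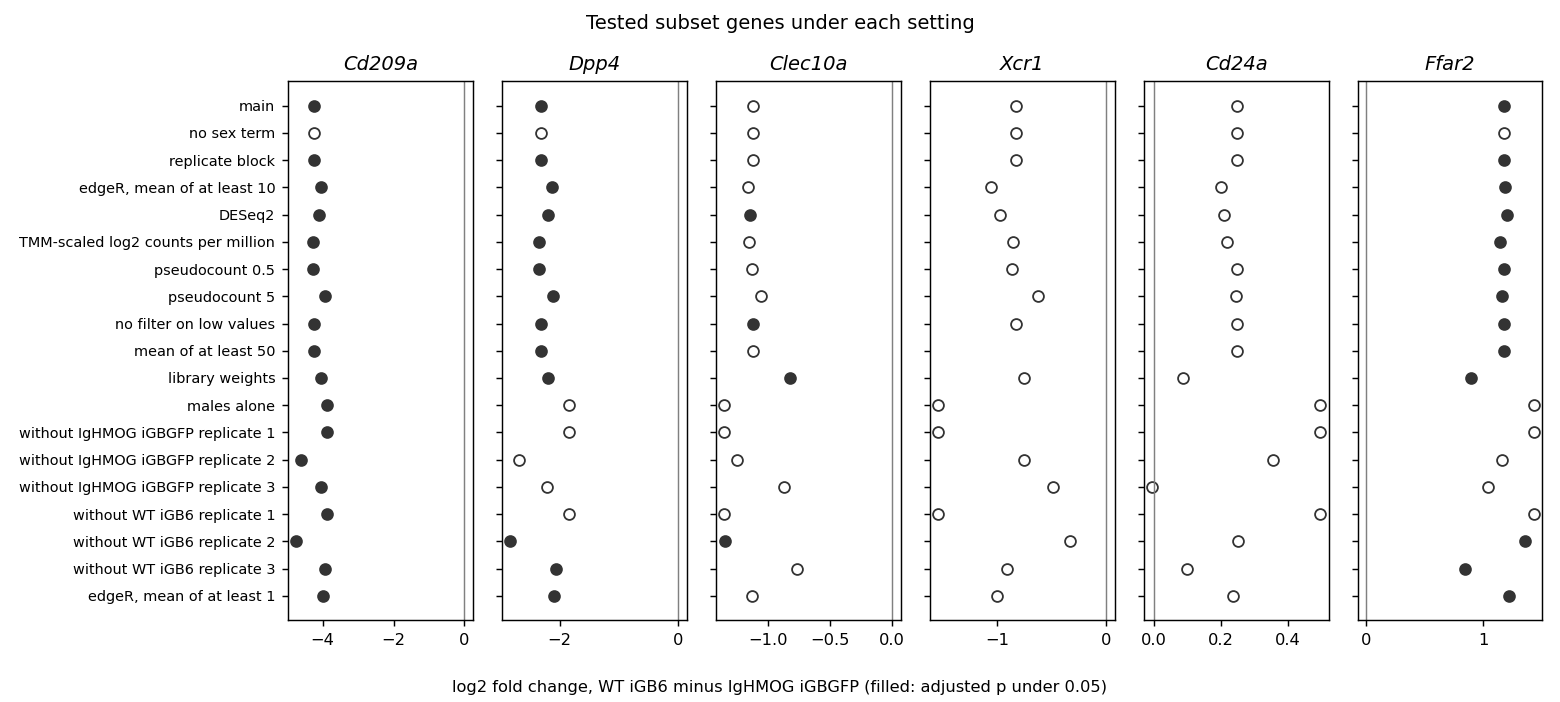
Log2 fold change (WT iGB6 minus IgHMOG iGBGFP) of the 6 tested genes under each model, filter and left-out library; filled points have an adjusted p under 0.05. Cd209a stays between -4.75 and -3.88 and is unfilled without the sex term alone, while Dpp4 and Ffar2 are also unfilled in males alone and without any of 4 of the libraries. By design, males alone and leaving out either replicate 1 give the same fold change.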

How the data were processed

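Bulk RNA-seq libraries came from sorted CD11b+ cells of 6 mice, 1 mouse each, per the labels' titles. Per the labels' protocols, the input was 8 to 16 ng of RNA, amplified in 17 and then 9 cycles, with no molecular identifiers described, so counting error is a lower limit. The submitters' processing notes name GRCm38, STAR 2.7.10b, featureCounts 2.0.3 and DESeq2 2.11.40.7. For annotation and strand setting, the sources used here give nothing. The deposited signal, a normalized count, holds counts that the authors divided by 1 size factor per library (100% whole after division by the step, within 0.001). The authors' deposited comparison table, made with DESeq2 per the submitters' processing notes and its name, holds the log2 fold change and its standard error without a header. The same deposited table holds the authors' Wald score. It also holds the authors' p-value and adjusted p-value per gene, as deposited, and all its columns were identified from their values.

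Symbols and coordinates came from GENCODE M21 (42548 of 43432 genes matched), and merged exon length counts every annotated exon. limma 3.58.1 in R 4.3.3 was fitted to log2(normalized count + 1), which understates changes of low genes, for 9923 genes with a mean of at least 10, in a model of sex and group, tested two-sided at an adjusted p of 0.05 (Benjamini-Hochberg); SE is limma's. edgeR 4.0.16 and DESeq2 1.42.0 on recovered reads were alternatives, with other pseudocounts, filters, scaling, weights and left-out libraries. The scripts were tested on simulated data. Replicate 1 is the female in both groups, so the sex term takes up whatever else those libraries shared. The 10 genes, the marker lists and the rule for named genes (all 10, and up to 3 with the smallest p and the most abundant per dendritic cell list) were chosen with earlier results of these data known. Fcgr1, Mgl2, Cd3d, Cd3e, Cd4, Lat, Chil3, Fn1, Ms4a4c, Siglech and Ly6g were named after their values were seen. Other cell types are given by list counts and sums.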

Additional observations from a re-analysis of the deposited data

How the results depend on the processing

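The number of genes called was 607 with limma and the sex term. It was 10 without the sex term, 134 in males alone, 951 with DESeq2, 1079 without the filter and 1443 with library weights, and it ran from 4 to 1083 when 1 library was left out. With the replicate number as a block in place of sex it was 1001. Same-numbered libraries deviated together for number 1 (r across genes 0.48) and number 2 (0.35) but not for number 3 (0.04), so the numbers were not taken as pairs, and libraries 1 and 2 of both groups, but neither library 3, correlated best with their own number. Of the subset genes, 3 passed, against 0 without the sex term, 1 in males alone, 5 without the filter (Clec10a and Clec4a4 added) and 1 to 4 with 1 library left out. The replicate block brought Batf3 past the threshold (limma adjusted p = 0.0304) and changed no call of another gene named in the dendritic cell lists. With 1 library left out, Cd24a ran from -0.0057 (without IgHMOG iGBGFP replicate 3) to 0.50, Bcl6 from -0.25 to 0.15, Xcr1 from -1.54 to -0.33, Mgl2 from 0.67 to 2.02 and Cd86 from -0.92 to -0.24. Bcl6 turned to 0.15 in males alone and without replicate 1 of either group, and to 0.06 without IgHMOG iGBGFP replicate 2. With 1 female per group, leaving out either replicate 1 must give the same fold change as males alone. Those settings are therefore not separate checks. The cause of these changes was not tested beyond the smaller number of libraries. Zbtb46, Esam, Clec9a and Xcr1 are limited by depth, with 1 to 23 reads per library. The exclusion of Xcr1 by the filter at a mean of 50 leaves no value there.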
